A study of Felis catus with 8 samples.

Results

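The comparison described here is the main effect of dietary trans fat combined with HFCS, a high-fructose corn syrup, on gene expression in the liver of male cats. It set the 4 arrays of cats fed trans fat and HFCS against the 4 arrays of cats fed neither, and used 8 of the 8 arrays of the series. The effect was taken as the mean of a pair of differences, one within the diets without monosodium glutamate (MSG) and one within the diets with it. The genes described are mainly those that moved the same way at both MSG levels. No array is shared between these 2 differences.

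The 4 diets were a standard feline chow (control), that chow with 1.125% MSG, a diet with trans fat (8.6%) and HFCS (24%), and a combined diet holding all 3 additions at those same shares. Each diet was fed to the dams from 3 weeks before mating, through gestation and nursing, and to their sons until 9 months of age, so exposure was both maternal and direct. Each diet had 2 arrays, called biological replicates, and the labels mention 4 to 5 livers per diet for RNA. Litters and pooling of RNA are not given in the sources used here, so p-values measure the spread between these arrays, which may in part be technical. Trans fat and HFCS were always fed together, and their separate effects cannot be told apart.

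The liver disposes of cholesterol by converting it to bile acids, with CYP7A1 as the rate-limiting enzyme, and this step is restrained by the bile acid receptor FXR and by intestinal FGF19 acting through FGFR4 and its co-receptor KLB. The liver also makes cholesterol and fatty acids, and the enzymes of both pathways are regulated at transcription by the SREBP factors according to sterol and insulin signals. Glucocorticoid hormones act in liver through a nuclear receptor whose best known target genes include FKBP5 and ZBTB16.

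Cat RNA was hybridised to human whole-transcript arrays (HuGene 1.0 ST), so a probe set detects its feline transcript only where their sequences are alike. Levels are given as log2 intensity, averaged over the probe sets of a gene, and changes as log2 differences with the moderated standard error (SE). On the linear scale, the median intensity of all probe sets was 5.246 to 5.282 over the 8 arrays; precision is limited by how few arrays there were. The median gene stood at log2 3.96. Hepatocyte genes were bright on every array: ALB (albumin) stood between 9.63 and 10.06 and APOA1 between 8.50 and 8.93. Skeletal muscle genes stood apart on the pair of arrays of the diet with trans fat and HFCS but no MSG, where the 23 measured members had a median of 1.17 and 1.40 above the control mean, against -0.07 to 0.08 on the other 6 arrays.

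With trans fat and HFCS, 1372 of 17910 genes passed the test of the main effect, 7.66% of those tested (limma, Benjamini-Hochberg adjusted p under 0.05). Of the genes tested, 796 (4.44%) were higher and 576 (3.22%) were lower. In 1339 of these genes (7.48% of all tested) the differences at both MSG levels had the same sign, 774 higher (4.32%) and 565 lower (3.15%). In the other 33 (0.184%) they had opposite signs. The call on the mean favours equal signs: of all genes tested, called or not, 62.7% had the same sign at both levels. The number of calls depended on single arrays, with 458 and 485 genes called without control replicate 1 or 2 and 443 without MSG replicate 1. It was 724 without MSG replicate 2, 754 and 732 without trans-fat/HFCS replicate 1 or 2, and 865 and 1234 without combined replicate 1 or 2.

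The levels were also tested one by one, with 2 arrays against 2. The trans-fat/HFCS diet differed from control in 444 genes (2.48%), 262 higher (1.46%) and 182 lower (1.02%). The combined diet differed from the MSG diet in 297 (1.66%), 169 higher (0.944%) and 128 lower (0.715%). Of those 297 genes, 261 (87.9%) had the same sign in the comparison without MSG. At each level separately and with the same sign, 104 genes passed (0.581%), 62 higher (0.346%) and 42 lower (0.235%). Without 1 of the arrays this number was between 26 (MSG replicate 1) and 60 (combined replicate 1). It was 30 without control replicate 1, control replicate 2 or MSG replicate 2, 42 and 44 without trans-fat/HFCS replicate 1 or 2, and 58 without combined replicate 2. Among the 1339 genes of equal sign, the median size of the difference was 0.74 without MSG and 0.69 with MSG. At least a 2-fold difference at both levels was seen in 75 higher and 54 lower genes.

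**Figure D1:**
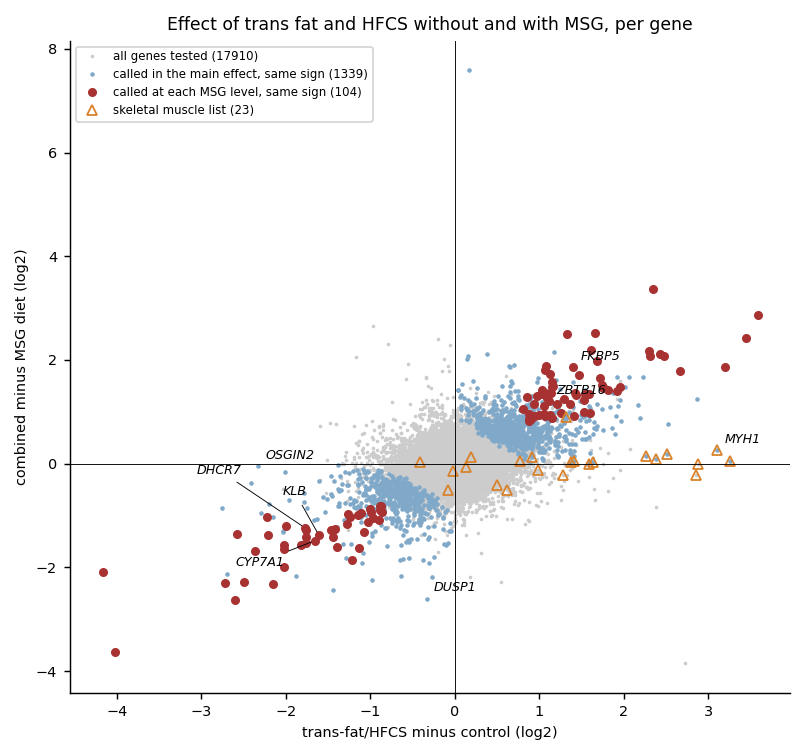
Each point is a gene, with the log2 difference between the trans-fat/HFCS and control diets on the horizontal axis and that between the combined and MSG diets on the vertical axis. The 104 genes called at each level with the same sign (red) lie at the upper right and lower left, while DUSP1, OSGIN2 and most skeletal muscle genes (triangles) moved at only 1 level.

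Among genes that passed by both the mean and the median of at least 3 probe sets, 242 (1.35% of those tested) had the same sign at both levels, 127 higher (0.709%) and 115 lower (0.642%). Of these, 194 had a symbol in a table of cat genes and were not passed over as non-coding RNAs, olfactory receptors or uncharacterised loci. The 14 higher and 14 lower of the 194 with the largest smaller-of-both difference are named here. FKBP5, a co-chaperone that lowers the hormone affinity of the glucocorticoid receptor, stood at 3.70 and 3.66 on the control arrays, 3.13 and 2.78 with MSG, 5.31 and 4.85 with trans fat and HFCS, and 4.80 and 4.84 on the combined diet. All 4 arrays with trans fat and HFCS lay above the other 4, as they did in 8.29% of all genes. FKBP5 rose by 1.63 (SE 0.14, adjusted p = 0.0006 in limma), by 1.40 without MSG and by 1.86 with MSG, and all 9 of its probe sets moved the same way at both levels.

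ZBTB16, a zinc-finger transcription factor induced by glucocorticoids, had 4.22 and 4.04 on control, 4.25 and 4.04 with MSG, 5.34 and 5.16 with trans fat and HFCS, and 5.33 and 5.36 on the combined diet. Its arrays with and without trans fat and HFCS did not overlap, and the diets with and without MSG were nearly level. ZBTB16 rose by 1.16 (SE 0.12, adjusted p = 0.0015 in limma), by 1.12 without MSG and 1.20 with MSG, over 8 probe sets. ADORA2B, an adenosine receptor coupled to cyclic AMP, stood at 6.07 and 6.28, 5.96 and 6.08, 7.07 and 7.10, and 6.91 and 6.87 in the same order of diets. The arrays with and without trans fat and HFCS did not overlap. ADORA2B rose by 0.89 (SE 0.12, adjusted p = 0.0038 in limma), but its brightest probe set alone gave -0.037.

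IL12B, the subunit shared by the cytokines interleukin-12 and interleukin-23, rose by 1.19, with 3.44 to 4.11 on the 4 arrays without trans fat and HFCS and 4.67 to 5.19 on the 4 with them. BRD9, a bromodomain protein of a chromatin remodelling complex, rose by 1.48, from 3.36 to 4.04 without the diet to 4.88 to 5.39 with it. The monocarboxylate transporter family member SLC16A13 was dim, at 2.76 to 2.91 on the 4 arrays without trans fat and HFCS and 3.75 to 3.99 with them, and rose by 1.08. SLC1A6, a glutamate transporter, rose by 1.02, and its call was likewise lost when dim probe sets were averaged in. The others were the secreted EGF-repeat protein EGFL6 (1.00), the storkhead-box gene STOX2 (1.17), the small GTPase RAB38 (1.00), the calcium-binding CIB3 (1.11), the lectin CLEC17A (1.02), the metalloprotease ASTL (0.92) and TNNT3 (1.11). Of their probe sets, all 3 of RAB38 moved the same way at both levels, but 2 of 3 did for STOX2, CIB3 and ASTL. For EGFL6 3 of 5 did, for CLEC17A 3 of 4 and for TNNT3 4 of 6. TNNT3 is the troponin T of fast skeletal muscle and belongs to the muscle genes that stood apart on the trans-fat/HFCS arrays, where it had 5.37 and 6.00. It stood at 5.04 and 5.17 on the combined arrays and at 4.03 to 4.43 on the other 4. The part of muscle RNA in its change was not tested.

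**Figure D2:**
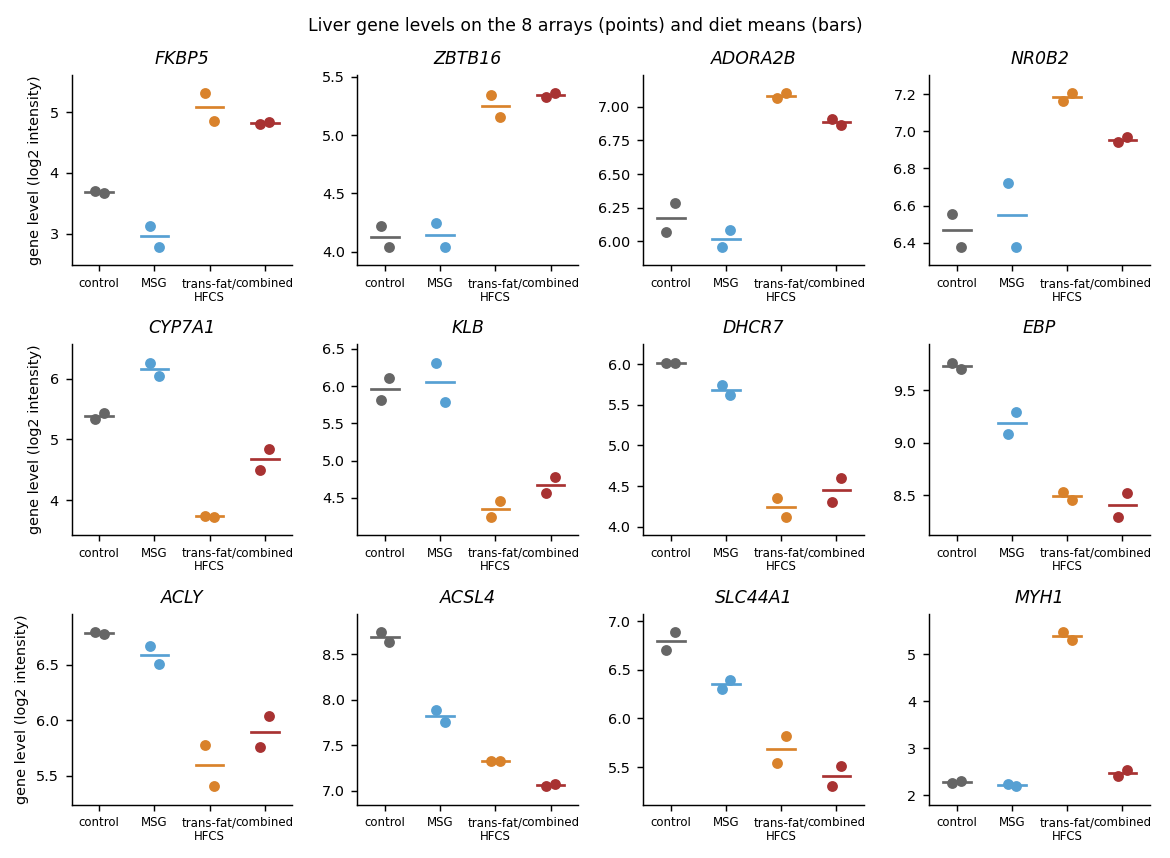
Log2 intensity on each of the 8 arrays (points) and the diet means (bars) for 12 genes described in the text, with diets along the horizontal axis; each panel has its own vertical scale, not starting at 0. The arrays with trans fat and HFCS do not overlap the others in FKBP5, ZBTB16, CYP7A1, KLB and DHCR7, while the muscle gene MYH1 is high only on the trans-fat/HFCS arrays.

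The lower genes CYP7A1, KLB, ACAT2, DHCR7 and CEL are described with their pathways. SLC44A1, a choline transporter measured by 13 probe sets, stood at 6.70 and 6.89 on control, 6.31 and 6.40 with MSG, 5.54 and 5.82 with trans fat and HFCS, and 5.31 and 5.51 on the combined diet. All 4 arrays with trans fat and HFCS were lower than the other 4 (6.72% of all genes had all 4 below). SLC44A1 fell by 1.03 (SE 0.13, adjusted p = 0.0031 in limma), by 1.11 without MSG and by 0.95 with MSG. IL19, a cytokine of the interleukin-10 family, had 5.00 and 4.57, 3.59 and 4.31, 2.80 and 2.37, and 2.67 and 2.49 in that order of diets. All 4 arrays with trans fat and HFCS were lower, at values near the limit for dim probe sets (2.43). IL19 fell by 1.79 (SE 0.19, adjusted p = 0.0017 in limma).

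ANXA2, a calcium-dependent membrane-binding protein, stood at 8.10 to 8.71 without trans fat and HFCS and 7.05 to 7.93 with them. It fell by 1.02 (SE 0.23, adjusted p = 0.029 in limma), but passed at neither MSG level alone (adjusted p = 0.13 and 0.16 in limma). CAPS, a calcium-binding protein, fell by 0.88 over 6 probe sets, by 0.88 without MSG and 0.89 with MSG. The remaining lower genes were the ADP-ribosyltransferase ART1 (-1.22), IQCA1L (-1.26), SH2D4B (-1.11), the clathrin assembly protein SNAP91 (-0.99) and the Golgi protein GORAB (-0.95). Only 1 of 3 probe sets of IQCA1L (-3.72 to 0.07) and 2 of 4 of ART1 (-4.47 to 0.17) moved the same way at both levels. For SH2D4B 4 of 5 did, for SNAP91 4 of 6 and for GORAB 2 of 3. Of the 28 named genes, 25 kept their call when any 1 array was left out. The exceptions were CLEC17A, lost without 5 of the arrays, ANXA2, lost without 5, and GORAB, lost without 4, with adjusted p up to 0.09, 0.11 and 0.074 in limma. With only the brightest probe set of each gene 18 of the 28 lost their call, ZBTB16 (0.32), DHCR7 (-0.22), SLC44A1 (-0.81), IL19 and ADORA2B among them. Averaging in the dim probe sets removed the call of BRD9, SLC1A6, ANXA2, SNAP91 and GORAB. FKBP5, CIB3, TNNT3, ASTL, CYP7A1, KLB, ACAT2 and CAPS kept their call under every alternative run for them (20, or 19 for TNNT3).

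In bile acid synthesis and transport, the hydroxylases CYP7A1 and CYP7B1 and the co-receptor KLB fell with trans fat and HFCS, and NR0B2 and OSTalpha rose. CYP7A1 stood at 5.34 and 5.43 on control, 6.26 and 6.04 with MSG, 3.73 on both trans-fat/HFCS arrays, and 4.50 and 4.84 on the combined diet. Both diets with trans fat and HFCS lay below both without, and at each base the diet with MSG had the higher values. CYP7A1 fell by 1.57 (SE 0.13, adjusted p = 0.0004 in limma), by 1.66 without MSG and by 1.48 with MSG. CYP7B1, which hydroxylates oxysterols in the alternative pathway, had 3.99 and 4.48, 4.26 and 4.02, 3.41 and 3.64, and 3.35 and 3.44, and fell by 0.73 (SE 0.15, adjusted p = 0.021 in limma). CYP27A1, which opens that alternative pathway, differed by 0.08 and the 12-alpha-hydroxylase CYP8B1 by -0.34, and neither passed.

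KLB had 5.81 and 6.11 on control, 6.32 and 5.78 with MSG, 4.25 and 4.45 with trans fat and HFCS, and 4.57 and 4.78 on the combined diet. The arrays with and without trans fat and HFCS did not overlap. KLB fell by 1.49 (SE 0.16, adjusted p = 0.0015 in limma), by 1.61 without MSG and by 1.38 with MSG. Its partner receptor FGFR4 differed by -0.22 and the FXR gene NR1H4 by -0.23, and neither passed. NR0B2, a corepressor induced by FXR, stood at 6.56 and 6.38, 6.72 and 6.38, 7.17 and 7.21, and 6.94 and 6.97 in the order control, MSG, trans fat and HFCS, combined. It lay higher on all 4 arrays with trans fat and HFCS and rose by 0.56 (SE 0.13, adjusted p = 0.03 in limma). OSTalpha, a subunit of the basolateral bile acid exporter, rose by 0.49 (SE 0.12, adjusted p = 0.042 in limma), whereas the canalicular pump ABCB11 (-0.30) and the exporter ABCC3 (-0.62) did not pass. Of the 23 measured genes of this list, 2 rose and 3 fell (21.7% called, against 7.66% of all genes tested). Their median was -0.16 against 0.02 over all genes. CYP7A1 and KLB kept their call without any 1 array. CYP7B1 lost it without 4 of the arrays, NR0B2 without 7 and OSTalpha without 8 (adjusted p up to 0.082, 0.11 and 0.13 in limma).

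Late cholesterol synthesis runs from squalene to cholesterol. All 11 measured members had a negative main effect, 10 of them at both MSG levels, as had 8541 and 5334 of all 17910 genes. Of the 11 members 5 fell (45.5%), against 3.22% of all genes. The median was -0.48, with -0.46 without MSG and -0.41 with MSG. DHCR7, the enzyme of the last step, stood at 6.02 and 6.01 on control, 5.74 and 5.62 with MSG, 4.36 and 4.13 with trans fat and HFCS, and 4.30 and 4.59 on the combined diet. The 4 arrays with trans fat and HFCS were all more than a log2 unit below the others. DHCR7 fell by 1.5 (SE 0.13, adjusted p = 0.00048 in limma), by 1.77 without MSG and 1.23 with MSG, and its 6 probe sets moved the same way.

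EBP, the sterol isomerase upstream of DHCR7, stood at 9.77 and 9.70 on control, 9.09 and 9.29 with MSG, 8.53 and 8.46 with trans fat and HFCS, and 8.30 and 8.52 on the combined diet. Its arrays with and without trans fat and HFCS did not overlap. EBP fell by 1.01 (SE 0.12, adjusted p = 0.0028 in limma), by 1.24 without MSG and by 0.78 with MSG (adjusted p = 0.062 in limma). LSS, which closes the sterol rings, had 6.79 and 7.04, 6.53 and 6.66, 6.04 and 6.27, and 6.19 and 6.30 and fell by 0.56 (SE 0.12). The demethylating enzymes followed: SC4MOL (now MSMO1) fell by 0.52 (SE 0.13) and CYP51A1 by 0.84 (SE 0.17), the latter with 2 probe sets that disagreed (-2.19 and 0.52). Adjusted p in limma was 0.03, 0.044 and 0.023. FDFT1 (-0.48), SC5DL (-0.48), SQLE (-0.33), TM7SF2 (-0.24), NSDHL (-0.10) and C14orf1 (-0.15) did not pass. DHCR7 and EBP kept their call without any 1 array, while LSS and SC4MOL lost it without 7 of the arrays and CYP51A1 without 5 (adjusted p up to 0.11, 0.14 and 0.09 in limma).

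In the mevalonate pathway upstream 2 of 8 measured genes fell (25%, against 3.22% lower over all genes) and the median was -0.05. ACAT2, the cytosolic thiolase that makes acetoacetyl-CoA, stood at 6.11 and 5.81, 5.81 and 5.51, 3.78 and 4.09, and 3.87 and 4.81 in the same order of diets. It fell by 1.67 (SE 0.21, adjusted p = 0.0034 in limma), with its highest value among the trans-fat/HFCS arrays on combined replicate 2. IDI1, the isomerase of the isoprenoid units, had 5.23 and 4.95, 5.24 and 4.55, 4.08 and 4.19, and 4.08 and 4.20 and fell by 0.86 (SE 0.17, adjusted p = 0.019 in limma). HMGCS1 (0.10), MVK (-0.06), PMVK (0.30), MVD (-0.23), FDPS (0.03) and GGPS1 (-0.04) did not pass. In the list of SREBP2 control and sterol uptake, 3 of 16 genes fell (18.8%, against 3.22% lower over all genes). They were NPC1L1, the sterol importer (-0.63), LPIN1, a phosphatidate phosphatase (-0.57), and STARD4, a sterol carrier (-0.48). SREBF2 itself lay lower on all 4 arrays with trans fat and HFCS but missed the threshold (-0.47, adjusted p = 0.053 in limma). INSIG1, which holds SREBP factors inactive, differed by 0.01. IDI1 lost its call without 3 of the arrays and the other 3 genes without 6 or 7.

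**Figure D3:**
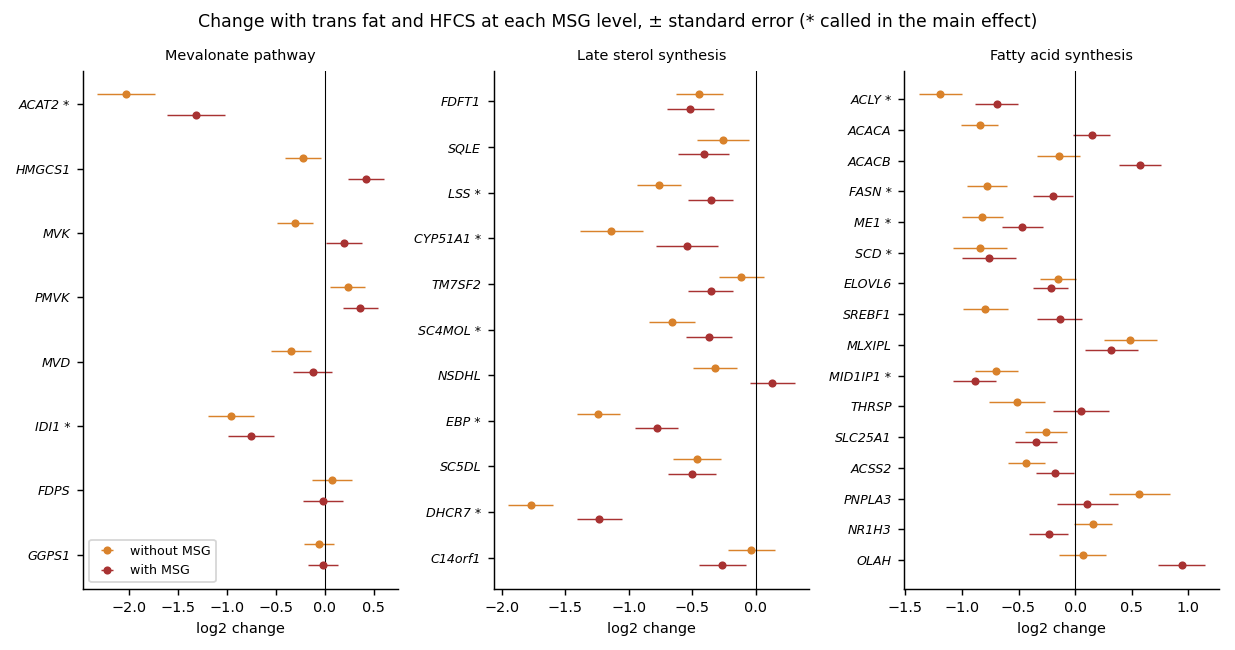
Log2 difference with its SE at each MSG level for the measured genes of sterol and fatty acid synthesis, in pathway order. Most genes of late sterol synthesis lie left of 0 at both levels, while those of the mevalonate pathway lie on both sides.

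In fatty acid synthesis 5 of 16 measured genes fell (31.2%, against 3.22% lower over all genes) and none rose. The median was -0.30, with -0.47 without MSG and -0.19 with MSG. ACLY, which makes cytosolic acetyl-CoA from citrate, stood at 6.80 and 6.78 on control, 6.67 and 6.51 with MSG, 5.78 and 5.41 with trans fat and HFCS, and 5.76 and 6.04 on the combined diet. All 4 arrays with trans fat and HFCS were lower, and ACLY fell by 0.94 (SE 0.14, adjusted p = 0.0059 in limma), with 18 of 22 probe sets moving the same way. FASN, the fatty acid synthase, had 4.90 and 4.92, 4.54 and 4.27, 4.10 and 4.16, and 4.10 and 4.33. It fell by 0.49 (SE 0.12, adjusted p = 0.046 in limma) but its groups overlapped, with -0.78 without MSG and -0.20 with MSG. ME1, a source of NADPH, fell by 0.64 and MID1IP1, an activator of acetyl-CoA carboxylase, by 0.79. The brightest probe set of ME1 alone gave 0.19.

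SCD, the desaturase that makes oleate, stood at 3.75 and 4.30, 3.92 and 3.43, 3.25 and 3.12, and 2.79 and 3.04, and fell by 0.80 (SE 0.17, adjusted p = 0.026 in limma). Its 4 probe sets ranged from -2.72 to 0.97, and the brightest alone, or a stricter filter, gave 0.97. ACACA, the acetyl-CoA carboxylase, fell at the level without MSG (-0.84, adjusted p = 0.035 in limma) but differed by 0.15 with MSG. The regulators SREBF1 (-0.46) and MLXIPL (0.40) did not pass in the main effect. ACLY kept its call without any 1 array. MID1IP1 lost it only without control replicate 2 (adjusted p = 0.054 in limma), ME1 and SCD lost it without 5 of the arrays and FASN without 8.

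In triglyceride assembly and polyunsaturated fatty acid synthesis 5 of 18 genes fell (27.8%, against 3.22% lower over all genes), though the median was -0.02. The long-chain acyl-CoA synthetase ACSL4, which favours arachidonate, stood at 8.74 and 8.64 on control, 7.88 and 7.75 with MSG, 7.33 on both trans-fat/HFCS arrays, and 7.05 and 7.08 on the combined diet. It lay lowest on the combined diet. ACSL4 fell by 1.06 (SE 0.11, adjusted p = 0.0015 in limma), by 1.37 without MSG and 0.75 with MSG. ACSL3, a synthetase of lipid droplets and endoplasmic reticulum, fell by 0.80 (SE 0.12), from 6.18 to 6.45 on the arrays without trans fat and HFCS to 5.38 to 5.53 on those with them. ELOVL2, which elongates polyunsaturated fatty acids, fell by 1.26, the mean of 3 probe sets between -3.38 and -0.06. GPAM, the first enzyme of glycerolipid synthesis, fell by 0.73. LPIN1, given above with the sterol genes, was the other member that fell. FADS1 (0.56), ELOVL5 (0.38) and AGPAT3 (0.50) were positive and did not pass. ACSL4, ACSL3 and ELOVL2 kept their call without any 1 array, GPAM lost it without 5. With the median of probe sets ACSL3, ELOVL2 and GPAM lost their call.

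For fatty acid oxidation, the list of 23 PPARA targets had 2 genes higher and 1 lower (13% called, against 7.66% of all genes). Its median was 0.00 (0.17 without MSG and -0.11 with MSG). VNN1, a pantetheinase, stood at 3.67 and 3.51, 3.27 and 3.13, 5.66 and 5.37, and 5.54 and 4.23. Its arrays with and without trans fat and HFCS did not overlap, and VNN1 rose by 1.80 (SE 0.25, adjusted p = 0.0051 in limma). Without the filter on dim probe sets it rose by 0.41 and did not pass. ANGPTL4, a lipase inhibitor read by 1 probe set, rose by 0.61 but differed by 0.00 without that filter. CPT1A, the gate of mitochondrial fatty acid import, was high on the MSG arrays (5.77 and 5.97) and at 4.55 to 4.78 on the other 6. Its fall of 0.60 therefore came from the level with MSG (-1.14) and not from that without (-0.06), and its brightest probe set gave 0.23. ANGPTL4 and CPT1A lost their call without 6 of the arrays each. The mitochondrial beta-oxidation list had 1 of 21 genes called (4.76%), which was CPT1A again. Its median was -0.04, with 0.07 without MSG and -0.18 with MSG. The peroxisomal list had 1 of 19 called (5.26%), so both lists had a smaller share of calls than all genes.

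Among lipoprotein genes and lipases, 1 of 20 rose and 1 fell (10% called, against 7.66% of all genes). APOA5, a triglyceride-lowering apolipoprotein, had 4.54 and 4.90, 5.09 and 5.13, 5.41 and 5.34, and 5.58 and 5.64, and rose by 0.58 (SE 0.12, adjusted p = 0.026 in limma). It lost its call without 7 of the arrays. CEL, the lipase activated by bile salts, stood at 4.71 and 5.14, 5.02 and 5.35, 2.75 and 2.53, and 4.16 and 4.30 in the order control, MSG, trans fat and HFCS, combined. The 4 arrays with trans fat and HFCS were all lower, the pair without MSG by far, at values near the limit for dim probe sets (2.43). CEL fell by 1.62 (SE 0.15, adjusted p = 0.0007 in limma), by 2.29 without MSG and by 0.95 with MSG (adjusted p = 0.063 in limma). CEL lost its call with its brightest probe set alone. It is mainly a pancreatic enzyme. In the list of 10 exocrine pancreas genes (20% called, against 7.66% of all genes), which includes CEL, CELA3A rose and no other gene fell. The call of CELA3A (0.82) was lost without 6 of the arrays. None of the 18 genes of lipid droplets and fatty acid uptake passed.

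Of 19 measured genes of the glucocorticoid response, 4 rose and 2 fell (31.6% called, against 7.66% of all genes). The median was 0.21, with 0.28 without MSG and -0.03 with MSG, so the medians of the levels had opposite signs. Besides FKBP5 and ZBTB16, CRISPLD2, a secreted protein, rose by 0.70 and ERRFI1, an inhibitor of the EGF receptor, by 0.51. KLF9 (0.43), PER1 (0.43) and the amino acid-degrading enzyme TAT (0.23) were positive and did not pass. DUSP1, a phosphatase that switches off MAP kinases, went the other way, with 4.90 and 5.00 on control, 6.35 and 6.53 with MSG, 4.56 and 4.68 with trans fat and HFCS, and 3.76 and 3.92 on the combined diet. The MSG arrays stood above all others. DUSP1 fell by 1.47 in the main effect (SE 0.12, adjusted p = 0.00038 in limma), by 0.33 without MSG (adjusted p = 0.34 in limma, not passing) and by 2.60 with MSG. GADD45B fell by 0.47 with overlapping arrays. FKBP5, ZBTB16 and DUSP1 kept their call without any 1 array, CRISPLD2 lost it without 4 and ERRFI1 and GADD45B without 8.

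**Figure D4:**
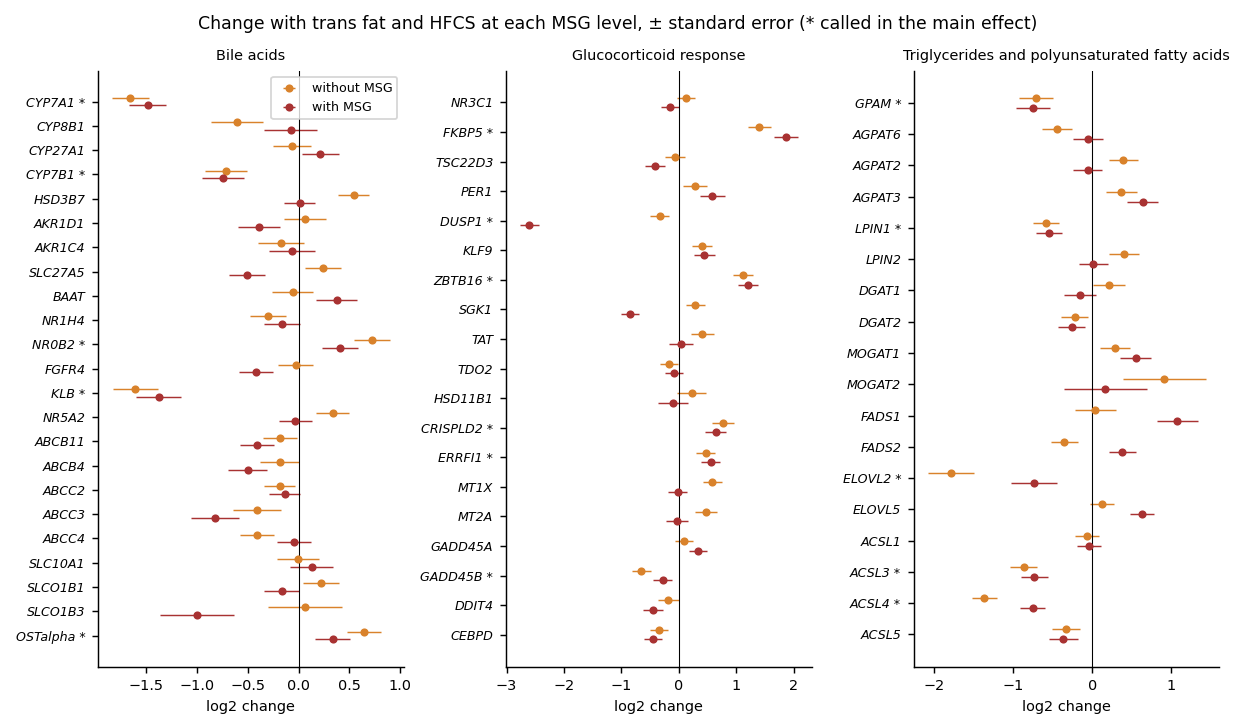
Log2 difference with its SE at each MSG level for the measured genes of the lists of bile acid metabolism, the glucocorticoid response and triglyceride assembly, with a star for those called in the main effect. CYP7A1, KLB and ACSL3 lie left of 0 and FKBP5 and ZBTB16 right of 0 at both levels, while DUSP1 lies far left only with MSG.

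In the circadian clock list 2 of 18 genes rose and 1 fell (16.7% called, against 7.66% of all genes). HLF, a clock-controlled transcription factor, had 4.82 and 4.94, 5.22 and 5.28, 5.56 and 5.73, and 5.74 and 6.00 and rose by 0.69 (SE 0.12, adjusted p = 0.013 in limma). The clock factor NPAS2 rose by 0.55 and BHLHE40, a repressor within the clock, fell by 0.75. Their calls were lost without 2, 6 and 6 of the arrays. The time of day at which livers were taken is not given in the sources used here.

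In fructose and glucose breakdown 4 of 22 fell (18.2%, against 3.22% lower over all genes). The median was 0.02 (0.12 without MSG and -0.13 with MSG). KHK, the first enzyme of fructose breakdown, stood at 5.78 and 5.61, 6.14 and 5.91, 5.33 and 5.41, and 5.41 and 5.38 and fell by 0.48 (SE 0.12, adjusted p = 0.044 in limma). PFKFB1 fell by 0.55 and PFKFB3 by 0.49, both enzymes in the metabolism of the glycolytic activator fructose 2,6-bisphosphate, and PGAM1 fell by 1.03. In the pentose phosphate pathway TALDO1 rose by 0.57 and PGD fell by 0.88 among 7 genes (28.6% called, against 7.66% of all genes). In gluconeogenesis and glycogen metabolism 3 of 17 fell (17.6%, against 3.22% lower over all genes). They were G6PC (-0.56), FOXO1 (-0.46) and GYG2 (-0.74), while PCK1 differed by 0.08. All these calls were lost without 5 to 8 of the arrays.

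In the insulin and IGF1 list 16 of 21 genes were negative, 14 at both levels, with a median of -0.25. Over all 17910 genes 8541 were negative, 5334 at both levels. In the list 3 fell and 1 rose (19% called, against 7.66% of all genes). IGF2, a fetal growth factor, had 5.33 and 5.66 on control, 5.30 and 5.06 with MSG, 4.17 and 3.70 with trans fat and HFCS, and 4.88 and 4.20 on the combined diet. All 4 arrays with trans fat and HFCS were lower, and IGF2 fell by 1.10 (SE 0.19, adjusted p = 0.012 in limma), by 1.56 without MSG and 0.64 with MSG (adjusted p = 0.26 in limma). IGF1, the main growth factor secreted by liver, stood at 8.89 and 8.84 on control, 8.07 and 8.22 with MSG, 8.10 and 8.06 with trans fat and HFCS, and 7.83 and 7.79 on the combined diet. Only control stood apart, so the groups overlapped, and IGF1 fell by 0.56 (SE 0.11, adjusted p = 0.021 in limma). FOXO1, given above with gluconeogenesis, was the other member that fell. FOXO3 rose by 0.50, a call lost without 8 of the arrays. IGF2 lost its call without control replicate 2 or MSG replicate 1 (adjusted p up to 0.056 in limma), and IGF1 without 6 of the arrays.

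Immediate early genes, which respond within minutes to growth signals or stress, had 4 of 21 members lower (19%, against 3.22% of all genes) and none higher. Their median was -0.25. ZFP36, an RNA-binding protein that destabilises cytokine messages, stood at 6.70 and 6.57, 5.94 and 6.10, 5.69 and 5.43, and 4.77 and 4.65. It was lower at each MSG level and fell by 1.19 (SE 0.12, adjusted p = 0.0014 in limma) on 1 probe set. FOSB, an AP-1 factor, fell by 1.31 (SE 0.17), by 1.75 without MSG and 0.86 with MSG. FOSB lost its call with its brightest probe set alone. NR4A2 fell by 0.80, with 4.38 and 4.20 on the MSG arrays and 2.44 to 2.95 on the other 6, so the difference was -0.08 without MSG. It lost its call without 3 of the arrays, and its brightest probe set gave 0.13. DUSP1, given above, was the other member.

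In the NRF2 list 3 of 24 fell and 1 rose (16.7% called, against 7.66% of all genes). NFE2L2, the factor itself, fell by 0.69, its inhibitor KEAP1 rose by 0.56 and GCLC, which limits glutathione synthesis, fell by 0.52. NFE2L2 lost its call without 6 of the arrays and KEAP1 and GCLC without 7, and the brightest probe set of GCLC gave 0.087. OSGIN2 was at 6.65 and 6.57 on control and at 4.14 to 4.52 on the other 6 arrays, so its fall of 1.19 came from the level without MSG. In drug metabolism 3 of 28 rose and 2 fell (17.9% called, against 7.66% of all genes). Of these 5 calls 4 had the same sign at both MSG levels. GSTA3, counted as lower, was higher without MSG and lower with MSG. ALAS1, which limits haem synthesis, had 7.43 and 7.23, 7.59 and 7.68, 8.20 and 8.47, and 8.15 and 8.01 and rose by 0.72 (SE 0.12, adjusted p = 0.012 in limma), and CYP1A1 rose by 0.57. These calls were lost without 2 and 6 of the arrays. Among acute phase genes HP, haptoglobin, alone of 22 passed (4.55%, against 7.66% of all genes). It stood at 6.67 and 6.86, 7.28 on both MSG arrays, 6.14 and 5.44, and 5.46 and 4.61. HP fell by 1.61 (SE 0.22, adjusted p = 0.0042 in limma). Its 2 probe sets gave -2.64 and -0.58.

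Markers of cell types were examined beside these changes. In whole liver, fewer cells of a type and less RNA per cell cannot be told apart. None of 14 hepatocyte markers passed, and their summed level was 12.16 to 12.37 (log2) on all 8 arrays. None of 14 endothelial, 8 cholangiocyte or 5 erythroid markers passed. Of 24 stellate cell and matrix genes 20 were negative, 13 at both MSG levels, with a median of -0.22. Over all 17910 genes 8541 were negative, 5334 at both levels. Of these lists' called members (12.5%, against 7.66% of all genes) 2 fell, SPARC (-0.62) and PDGFRB (-0.60), and COL6A1 rose by 0.58. Their calls were lost without 3, 6 and 7 of the arrays. Their summed level was 9.10 to 9.17 on the arrays without trans fat and HFCS, 9.02 to 9.04 with trans fat and HFCS and 8.81 to 8.86 on the combined diet. The summed level of 18 macrophage genes was 8.76 to 8.93 without trans fat and HFCS and 8.89 to 9.04 with them. Of the macrophage genes 16.7% were called, against 7.66% of all genes. CD68 rose by 0.78 and MSR1 by 0.50, and FCER1G fell by 1.55, its 2 probe sets giving -2.80 and -0.30. FCER1G kept its call without any 1 array, whereas MSR1 lost it without 8 and CD68 without 3, and the brightest probe set of CD68 gave -0.32. The neutrophil genes PADI4 (-1.54) and S100A12 (-1.81) fell among 11 (18.2%, against 3.22% lower over all genes). Of the 11, 5 were negative and 4 positive at both MSG levels. With no filter on dim probe sets neither PADI4 nor S100A12 passed, and PADI4 also lost its call with the median of probe sets. The summed level of the neutrophil genes was 7.34 to 7.46 without trans fat and HFCS and 6.85 to 7.19 with them. Relative to the control mean, however, their median overlapped between these arrays. It was 0.19 and 0.08 with MSG, -0.10 and -0.04 with trans fat and HFCS, and 0.13 and -0.28 on the combined diet. Of 19 lymphocyte genes (5.26% called) CD247 rose (0.79), a call lost without 5 of the arrays. Of 10 adipocyte markers 30% were called, against 7.66% of all genes. RETN (0.65) and ADIPOQ (0.58) rose and LEP fell by 0.63, each a call lost without 7 of the arrays. The part of these cell types in the changes above was not tested.

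Skeletal muscle genes gave the largest share of calls of any list, 14 of 23 (60.9%, against 4.44% higher over all genes), but not at both MSG levels. Their median was 1.32 without MSG and 0.04 with MSG. MYH1, a fast muscle myosin, stood at 2.26 and 2.31 on control, 2.23 and 2.20 with MSG, 5.48 and 5.32 with trans fat and HFCS, and 2.41 and 2.53 on the combined diet. Only the pair of trans-fat/HFCS arrays was high. The summed level of the list was 10.04 and 10.06 there and 8.44 to 8.54 on the other 6 arrays. Of the 23 genes, 12 were positive at both levels (5898 of 17910 over all genes). The filter used the mean over all 8 arrays, so probe sets high only on that pair could be kept through it. The list median of the main effect was 0.71. It was 0.43 with no filter, 0.28 with the 75th percentile filter, 0.33 with the brightest probe set and 0.83 with the median of probe sets. MYH1, MYL1, ACTA1, TPM2, SLN and MYBPC1 lost their call in an additive model and with trans fat and HFCS as the only factor. TNNT3, described above, differed by 1.32 without MSG and 0.89 with MSG. The part of muscle RNA in the other changes was not tested.

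**Figure D5:**
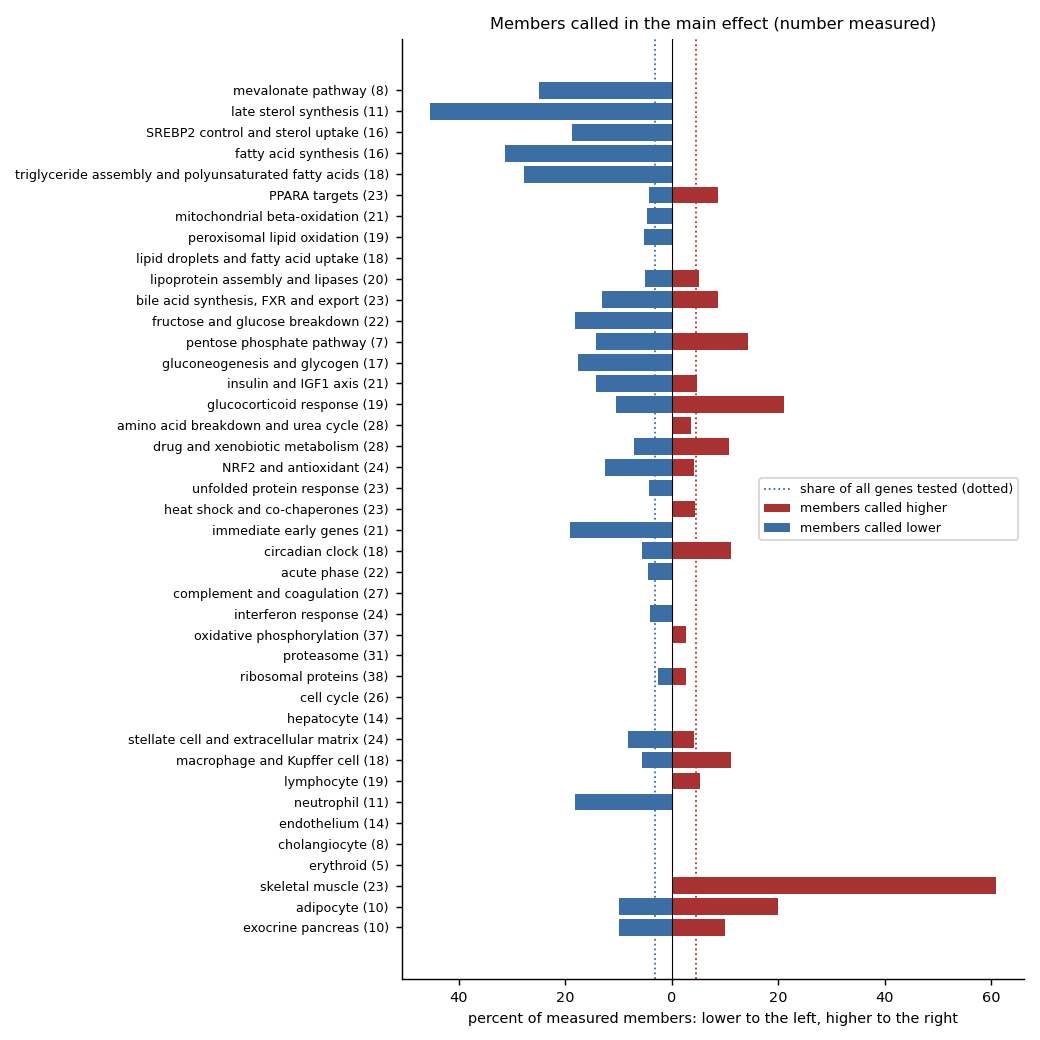
Percent of the measured members of each gene list called higher (right, red) or lower (left, blue) in the main effect, with the share of all genes tested as dotted lines. Late sterol synthesis has the highest lower share (5 of 11) and skeletal muscle the highest higher share (14 of 23).

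The remaining lists had few calls, none with a share above the 7.66% called over all genes. None passed among 27 complement and coagulation genes, 31 proteasome genes and 26 cell cycle genes. Single calls were seen in amino acid breakdown and the urea cycle (1 of 28, HAL, 0.60), oxidative phosphorylation (1 of 37, SDHA, 0.50), the unfolded protein response (1 of 23, SDF2L1, -0.61), heat shock (1 of 23, BAG5, 1.75) and the interferon response (1 of 24, STAT2, -0.50). Ribosomal proteins had 1 higher, RPS14, and 1 lower, RPL32, of 38. BAG5 kept its call without any 1 array but lost it with its brightest probe set alone. HAL lost it without 7, SDHA and STAT2 without 8, SDF2L1 and RPS14 without 5 and RPL32 without 6. Of the 23 unfolded protein response genes 18 were negative, 14 at both MSG levels (8541 and 5334 of 17910 over all genes), with a median of -0.17.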

How the data were processed

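Gene expression was measured in 8 liver samples, 2 per diet. The deposited values are normalized intensities of exon-level probe sets, taken as linear from their range (lowest 2.218, highest 22966.4). The submitters' processing notes name GCRMA, Partek and hg19; versions, roles and order are not given in the sources used here. Deposited intensities were log2 transformed. Of 257101 probe sets, the 128550 above the median mean (log2 2.43) were kept, and the 111624 of these with 1 gene in the platform annotation were averaged to 17910 genes (median 5 probe sets, 2000 genes on 1). Old symbols are kept. Sequence differences among cats can also alter a probe set's value.

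A 4-group model was fitted with limma 3.58.1 in R 4.3.3, two-sided, with Benjamini-Hochberg adjustment over 17910 genes and calls at an adjusted p under 0.05. All diets shared 1 estimate of the spread (4 residual and 5.01 prior degrees of freedom). The arrays and gene lists were chosen with earlier results of these data known. Genes were named if called by both the mean and the median of at least 3 probe sets, with the same sign at both MSG levels and a symbol in a table of cat genes (13566 genes, 75.7%). They were ranked by the smaller of both differences, and 14 were taken in each direction. Non-coding RNAs, olfactory receptors and uncharacterised loci were counted only. Lists are described by up to 6 called members and by members needed for a role. The steps were tested on simulated data. Alternatives covered the filter, the summary per gene, an offset, normalization, weights, the model, the replicate number as a block and each array left out. After the data were seen, repeated probe sets counted once and muscle genes left out were added.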

Additional observations from a re-analysis of the deposited data

Results flagged for a closer look

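The effect of trans fat and HFCS differed between the MSG levels in 9 of the genes described (limma interaction test, Benjamini-Hochberg adjusted p under 0.05), where 27 of all genes passed (0.151%). The values are the difference with MSG minus that without. Among skeletal muscle genes they were -3.08 for ACTA1, -2.12 for MYBPC1, -2.85 for MYH1, -3.21 for MYL1, -2.89 for SLN and -2.32 for TPM2, all of them with high values on the trans-fat/HFCS diet alone. DUSP1 gave -2.27, being highest on the MSG diet and lowest on the combined diet. GSTA3, a glutathione transferase, gave -2.83, its differences being positive without MSG and negative with MSG. OSGIN2 gave 2.29, being high on the control diet.

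Without 1 array, 5 to 20 genes passed the interaction test: 6 without either control array, 5 without either MSG array, 9 and 15 without trans-fat/HFCS replicate 1 or 2, and 18 and 20 without combined replicate 1 or 2.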

How the results depend on the processing

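Direction was kept more often than significance. Of the 114 genes tracked over 20 alternatives, 15 kept their call in all and 9 turned sign in at least 1. With the brightest probe set alone 62 lost their call, and ADORA2B (-0.037), CD68 (-0.32), CPT1A (0.23), GCLC (0.087), H19 (0.59), ME1 (0.19), SNAP91 (0.032), NR4A2 (0.13) and SCD (0.97) turned sign, as did NR4A2 (0.13) and SCD (0.97) with the filter at the 75th percentile. The cause was not tested.

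Genes called in the main effect numbered 2182 with the brightest probe set (1496 higher, 686 lower), 2413 with an offset of 16, 595 with the median of probe sets and 443 to 1234 without 1 array. Those of equal sign numbered 2117, 2341, 583 and 434 to 1202. Genes called at each level numbered 499, 331, 37 and 26 to 60, and 313 with the 75th percentile filter. The comparison without MSG called 1120, 1074, 180 and 62 to 528 genes, 834 with that filter and 694 with array weights. The comparison with MSG called 986, 914, 100 and 54 to 233, and 743 with that filter. The interaction called 56, 83, 5 and 5 to 20, 14 with that filter and 14 without muscle genes. The largest median shift of all genes was 0.047.

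Replicate numbers did not pair the arrays (correlations of deviations -0.0555 to 0.0433). With the replicate number as a block, 1026 genes were called in the main effect, 69 at each level and 11 in the interaction.

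Dim genes limit the comparison: without the filter on dim probe sets 27 of the 114 genes lost their call.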

Other observations

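3 further genes were chosen after their values were seen. H19, an imprinted non-coding RNA next to IGF2, stood at 5.99 and 5.96 on control, 5.65 and 5.78 with MSG, 4.03 and 3.91 with trans fat and HFCS, and 4.66 and 4.38 on the combined diet. Both diets with trans fat and HFCS lay below the others. H19 fell by 1.60 (SE 0.12, adjusted p = 0.00032 in limma), by 2.00 without MSG and 1.20 with MSG, with 4 of 5 probe sets moving the same way. Its brightest probe set gave 0.59.

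MIDN, a nuclear protein that takes part in protein breakdown, had 4.31 and 4.50, 4.49 and 4.36, 2.99 and 2.94, and 2.88 and 3.16 in the same order of diets. It fell by 1.43 (SE 0.12, adjusted p = 0.00055 in limma), by 1.44 without MSG and 1.41 with MSG. ST3GAL5, which makes the ganglioside GM3, had 6.55 and 6.33, 6.25 and 6.37, 5.58 and 5.36, and 5.20 and 5.32 and fell by 1.01 (SE 0.12, adjusted p = 0.003 in limma). With the median of probe sets neither MIDN nor ST3GAL5 passed.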
